A study of Oryza sativa with 6 samples.

Results

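Roots of 3-week-old rice (Oryza sativa, cultivar Swarna MTU7029) collected 24 h after the plants received the yeast Rhodotorula mucilaginosa JGTA-S1 were compared with roots of the same cultivar and age collected at 0 h without treatment. The arrays were chosen by their titles, which gave 2 arrays at 24 h and 2 at 0 h, 4 of the 6 arrays of the series. The other 2 were taken 6 h after the yeast. Each array gave a log2 signal for 41770 probe sets, and all of them were tested. Genes were then described by family, with family membership taken from gene symbols. Of 14662 genes measured, 1944 had a symbol, and 1422 of these fell into 82 families of calcium signalling, hormones, transcription factors, nutrition, cell wall, cell division and other roles. Of these families, 80 held 3 or more genes.

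The roots at 24 h had both the yeast and a day of elapsed time behind them, and untreated roots kept for the same time are not among the arrays, so yeast and time cannot be told apart. The labels do not say whether arrays of 1 time came from separate plants, so p-values measure only the spread between these arrays, which may be technical. The number of arrays, 2 per time, limits the precision. Whole roots were used, and in such bulk samples fewer cells of a type and less RNA per cell cannot be told apart.

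Rhodotorula yeasts are pigmented basidiomycetes that are often found on plant surfaces. Plant cells read contact with microbes through receptors at the cell surface, after which calcium enters the cytosol and is read by calmodulins, calcium-dependent protein kinases, and CBL sensors with their CIPK kinases. MAP kinase cascades and hormones such as jasmonate, auxin and cytokinin carry such signals further, and in roots they also govern nutrient uptake, wall building and cell division.

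The arrays of the 2 times had nearly the same centre and different spreads. Array medians were 2.84 and 2.85 at 24 h, against 2.91 and 2.93 at 0 h, while the SD over probe sets was 1.79 and 1.75 at 24 h, against 1.50 and 1.46 at 0 h. The 24 h arrays resembled each other more closely, with Pearson's r of 0.976 across probe sets, than the 0 h arrays did (r = 0.868), a description in which probe sets are not independent. With the 24 h arrays the first 0 h array had r of 0.88 and 0.888, and the second 0.861 and 0.872. The first 0 h array was thus no closer to the other 0 h array than to the 24 h arrays. Of 21 root markers 14 were matched, and their mean log2 signal was 5.93 and 6.05 at 24 h, against 5.73 and 5.73 at 0 h, with 0 past the threshold. Their log2 differences lay between -0.73 (the ammonium transporter OsAMT1;3) and 1.17 (the sodium transporter OsHKT1;5). Markers of green shoots (5 of 13 matched) averaged 3.27 and 2.97 at 24 h, against 3.29 and 3.80 at 0 h, with 1 lower. Those of flowers and seeds (3 of 7 matched) averaged 1.86 and 1.81 at 24 h, against 2.13 and 2.52 at 0 h. The part of these differences in spread and in marker signal in the results below was not tested.

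The threshold was a limma adjusted p of 0.05, and 925 of 41770 probe sets lay under it (2.21%), 826 higher at 24 h (1.98%) and 99 lower (0.237%), so that 89.3% of those that passed were higher. After quantile normalization, which gives all arrays 1 distribution, 24 passed, and 100% of them were higher; after cyclic loess 52 passed, 96.2% of them higher. No probe set passed when either 24 h array was left out (0, with 3813 and 4596 at an unadjusted p under 0.05) or either 6 h array (0, with 9271 in both cases). Without the first 0 h array 2793 passed, 67.0% of them higher, and without the second 1326, 66.3% of them higher. In what follows, rose and fell are used only of genes past the threshold in the fit to the deposited values.

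Represented each by its brightest probe set, 452 of 14662 genes passed (3.08%), of which 436 rose (2.97%) and 16 fell (0.109%). The genes that rose had a median mean signal of 5.68 at 24 h, against 3.61 at 0 h, and those that fell had a median of 1.71 at 24 h, against 3.42 at 0 h, while all genes had 3.82 at 24 h and 3.35 at 0 h. At 0 h both sets were thus close to the median of all genes, with 52 of the 436 that rose and 0 of the 16 that fell under the lower quartile of 2.62. How far low signals lie above background is unknown, which touches the 0 h values of dim genes that rose and the 24 h values of those that fell. The brightest gene that fell was LOC4339095, singled out after its values were seen, which read 6.48 and 6.71 at 24 h, against 8.42 and 8.17 at 0 h, and fell by 1.70 on the log2 scale (SE 0.30, adjusted p = 0.0397). Folds ran between 2.64 and 19.5 for rises and between 2.96 and 4.01 for falls. A fold of 4 or more was reached by 195 of the 436 rises and 1 of the 16 falls.

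**Figure D1:**
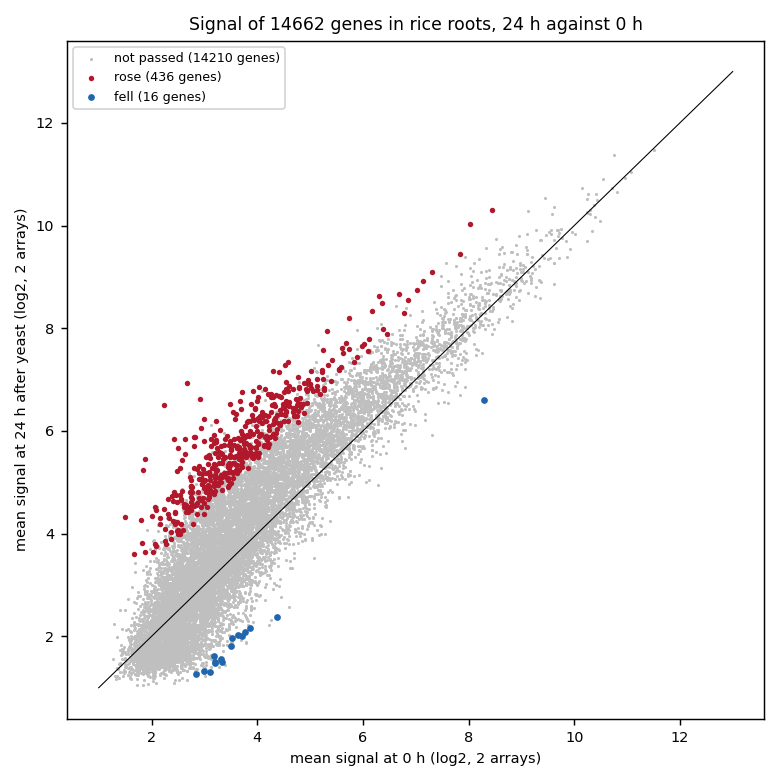
Mean log2 signal of each of 14662 genes over the 2 arrays at 24 h (vertical axis) and the 2 arrays at 0 h (horizontal axis), with the line of equal signal. The 436 genes that rose (red) lie above it and had mean signals at 0 h between 1.49 and 8.44; the 16 that fell (blue) lie below it and had mean signals at 0 h between 2.84 and 8.30.

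Over all genes the median log2 difference, 24 h minus 0 h, was 0.26 as deposited, 0.10 after quantile normalization, 0.34 after median centring and 0.07 after cyclic loess. A family median is therefore given beside 0.26. In these data 42.6% of all genes had both 24 h arrays above both 0 h arrays, and 16.3% had both below, and 64.3% read higher at 24 h than at 0 h by their means. Of the 80 families with 3 or more genes, 28 had a median above that of all genes in each of the 4 scalings, 32 a median below it in each, and 20 changed side. Median centring shifts all genes of an array alike, so it cannot move a family median against that of all genes. Only quantile normalization and cyclic loess could thus change a side. A median on the same side in each scaling can still lie close to that of all genes. Members were counted as changed in 34 families. Of genes with a symbol 68 rose (3.50%) and 2 fell (0.103%), and of genes in a family 53 rose (3.73%) and 2 fell (0.141%).

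**Figure D2:**
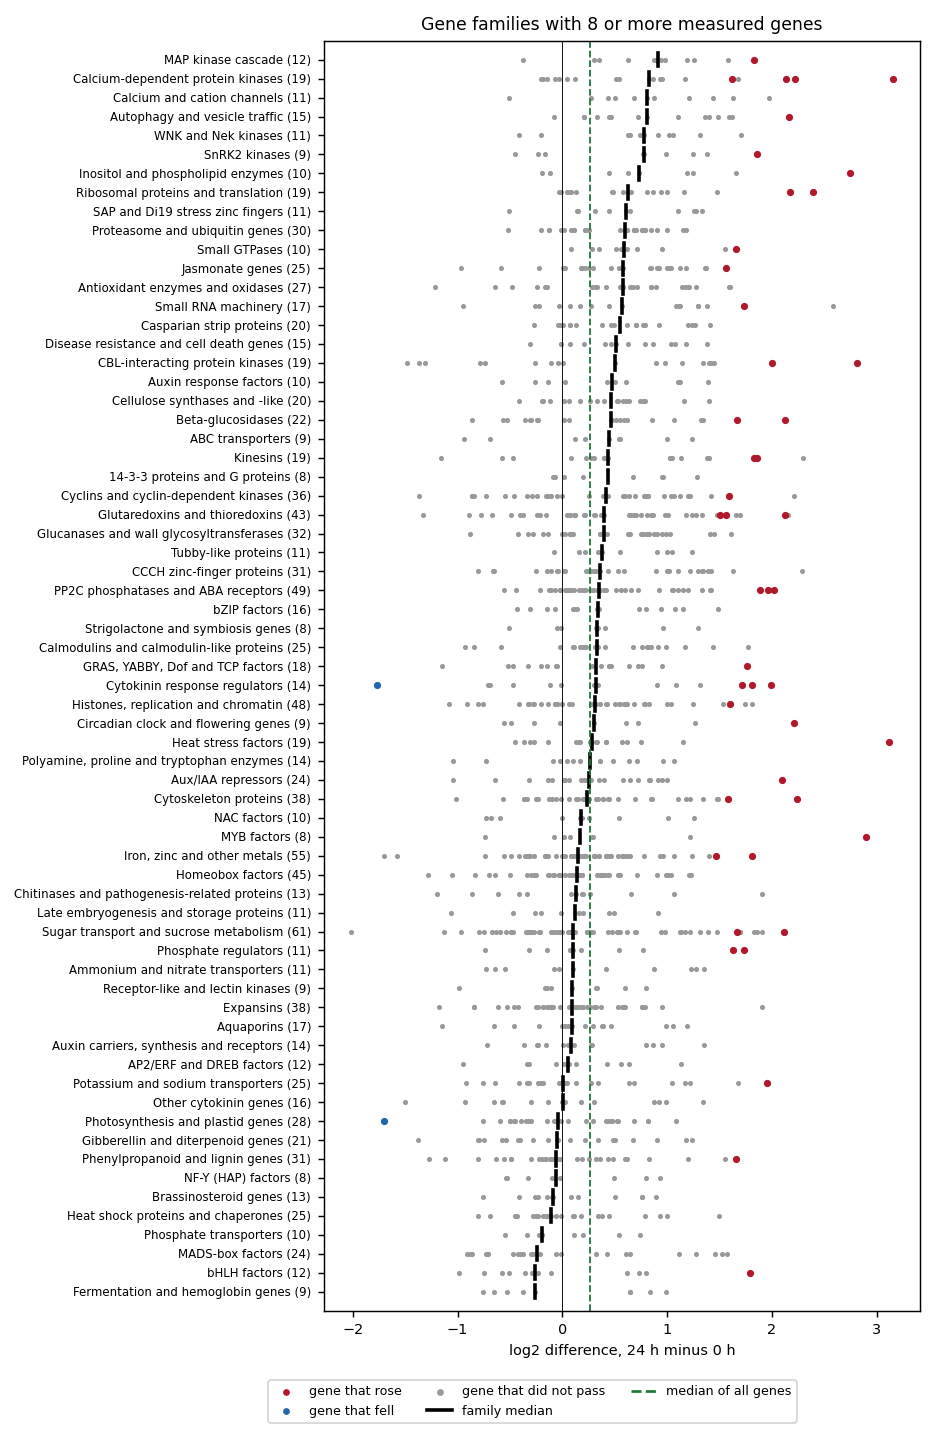
Log2 difference, 24 h minus 0 h, of each gene in the families with 8 or more measured genes (number in brackets), ordered by family median (black bar). Red points are genes that rose and blue points genes that fell; the dashed line is the median of all genes, 0.26, and MAP kinase genes, calcium-dependent kinases and calcium channels lie at the top in the values as deposited, an order that differs in other scalings.

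All of the 70 genes with a symbol that passed had both 24 h arrays on one side of both 0 h arrays, which passing with 2 arrays per time makes likely. After quantile normalization 1 of the 70, OsCDPK17, passed, and after cyclic loess also 1. Each of the 70 had the same sign and an unadjusted p under 0.05 in both, with rises of 0.91 to 3.05 on the log2 scale after quantile normalization. Without the first 0 h array 67 of the 70 passed and without the second 42. The 24 h arrays lay within 1 log2 unit of each other for all 70, while for 6 the 0 h arrays lay more than 1 unit apart, the largest gap being 2.01 for MYBAS1.

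**Figure D3:**
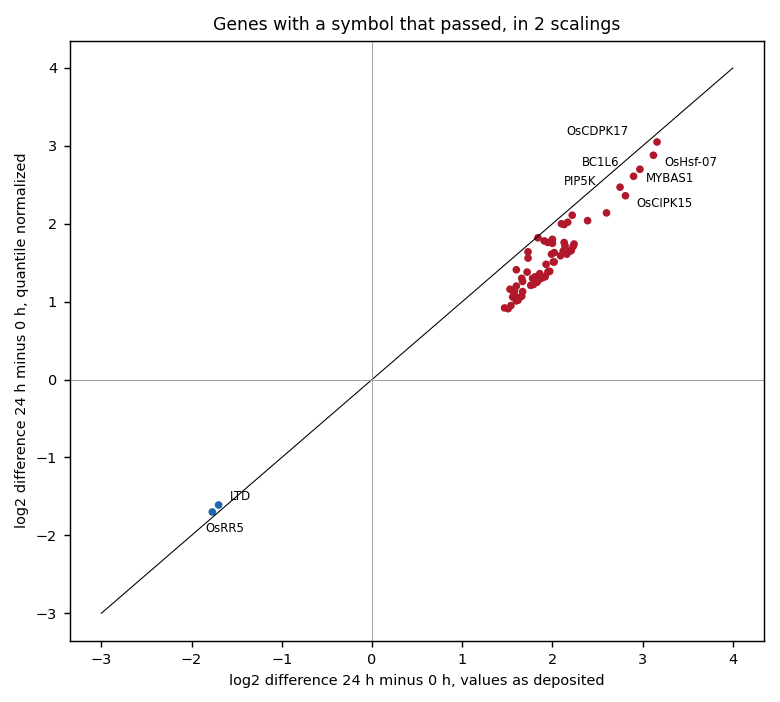
Log2 difference, 24 h minus 0 h, of the 70 genes with a symbol that passed, as deposited (horizontal axis) and after quantile normalization (vertical axis), with the line of equal values. Points for rises lie at or below the line, with values of 0.91 to 3.05 after quantile normalization, and no gene changes sign.

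Signalling genes rose in 15 of 201 cases (7.46%, beside 2.97% of all genes), and 0 fell (beside 0.109% of all genes). The calcium-dependent protein kinases, which bind calcium and phosphorylate targets in 1 polypeptide, held 4 genes that rose among 19, and 15 did not pass. OsCDPK17 read 5.76 and 5.55 at 24 h, against 2.53 and 2.47 at 0 h. It was 8.92-fold higher at 24 h (log2 difference 3.16 ± 0.32, SE, adjusted p = 0.0115), with each pair of arrays close together and far from the other pair. OsCDPK21 read 4.61 and 4.65 at 24 h, against 1.82 and 3.00 at 0 h (2.22 ± 0.41), the 0 h arrays lying far apart, and without the first or the second of them the difference was 1.64 and 2.81. OsCDPK28 read 5.95 and 5.76 at 24 h, against 3.39 and 4.03 at 0 h (2.14 ± 0.36). OsCDPK18 read 6.20 and 5.74 at 24 h, against 4.47 and 4.23 at 0 h (1.62 ± 0.32). The family median was 0.83, beside 0.26 for all genes, and it lay above that of all genes in each scaling. The excess was 0.57 as deposited, 0.18 after quantile normalization and 0.21 after cyclic loess.

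Kinases that act with CBL calcium sensors also held genes that rose. Of 19 CIPKs 2 rose and 0 fell. OsCIPK15, a kinase known from rice seedlings short of oxygen and sugar, read 6.97 and 6.74 at 24 h, against 4.33 and 3.76 at 0 h, a 7.01-fold difference (2.81 ± 0.34, adjusted p = 0.0174). OsCIPK10 was among the brightest genes that rose, with 10.33 and 9.75 at 24 h, against 7.87 and 8.19 at 0 h (2.00 ± 0.34). The CIPK median was 0.50 and lay above that of all genes as deposited, which median centring cannot change, and below it after quantile normalization and cyclic loess. Of the 19 CIPKs 52.6% had both 24 h arrays above both 0 h arrays and 21.1% had both below, close to the 42.6% and 16.3% of all genes, and OsCIPK05 was the lowest at -1.48.

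The calcium sensors and channels themselves held no gene past the threshold. The 4 CBL sensors had a median of 1.38 and were higher in 4 of 4 cases, and the 11 calcium and cation channels had a median of 0.81, with 10 reading higher, beside 64.3% of all genes. OsTPC1, a vacuolar cation channel, read 5.44 and 5.24 at 24 h, against 2.67 and 4.08 at 0 h, a difference of 1.97 ± 0.47 that did not pass (adjusted p = 0.0732), and the 0 h arrays lay far apart. OsCAX3, a calcium and proton exchanger, differed by 1.63 ± 0.43 (adjusted p = 0.0917), and the sensors CBL3 and CBL6 differed by 1.48 ± 0.57 and 1.27 ± 0.31. Of 25 calmodulins and calmodulin-like proteins 0 passed and 21 read higher, with a median of 0.33 that changed sides of the all-gene median between scalings.

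MAP kinase cascade genes had a median of 0.91, and 11 of 12 had both 24 h arrays above both 0 h arrays, beside 42.6% of all genes. Of the 12, 1 rose: MPK8 read 6.34 and 6.35 at 24 h, against 4.59 and 4.45 at 0 h (1.83 ± 0.30, adjusted p = 0.0357). MPK16 was the exception, at -0.38. The WNK and Nek kinases had a median of 0.78 with 0 of 11 past the threshold. OsWNK9, of a kinase family that lacks the usual catalytic lysine position, came near with 7.85 and 7.34 at 24 h, against 5.83 and 5.94 at 0 h (1.71 ± 0.35, adjusted p = 0.0515). Both of these families lay above all genes in each scaling. The MAP kinase excess was 0.65 as deposited, 0.32 after quantile normalization and 0.34 after cyclic loess. That of the WNK and Nek kinases was 0.51 as deposited and 0.38 after either of these.

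Abscisic acid signalling runs through PP2C phosphatases, which switch off SnRK2 kinases until the hormone binds its receptor. Of 49 PP2C and receptor genes 3 rose, and 41 read higher, beside 64.3% of all genes. OsPP2C06 read 5.36 and 5.64 at 24 h, against 2.92 and 4.04 at 0 h (2.02 ± 0.40), OsPP2C39 7.39 and 6.98 at 24 h, against 5.45 and 5.0 at 0 h (1.96 ± 0.33), and OsPP2C15 7.15 and 6.89 at 24 h, against 5.03 and 5.24 at 0 h (1.89 ± 0.30). Their group median of 0.35 was close to the 0.26 of all genes. Of 9 SnRK2 kinases OsSAPK9 rose, reading 7.72 and 7.47 at 24 h, against 6.03 and 5.45 at 0 h (1.86 ± 0.35). For the hormone's synthesis and breakdown 0 of 5 genes passed, and the synthesis enzyme OsNCED3 differed by 0.64 ± 0.37, which quantile normalization turned to -0.03.

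Other signalling genes that rose include those of a lipid kinase and of peptide hormones. PIP5K, which makes the membrane lipid phosphatidylinositol bisphosphate, read 6.14 and 5.72 at 24 h, against 3.70 and 2.67 at 0 h, a 6.72-fold difference (2.75 ± 0.40, adjusted p = 0.0270), and was the 1 riser among 10 inositol and phospholipid enzymes. Of 5 peptide hormone genes 2 rose. The phytosulfokine precursors PSK2 and PSK5, which give a sulfated growth peptide, read 5.54 and 5.63 and 5.60 and 5.86 at 24 h, against 3.57 and 3.74 and 4.12 and 4.27 at 0 h (differences of 1.93 ± 0.29 and 1.54 ± 0.29). Both 24 h arrays lay above both 0 h arrays for either gene, as they did for 42.6% of all genes. Of 8 genes for 14-3-3 and G proteins 0 passed, with the G protein beta subunit RGB1 at 1.29 ± 0.31 (adjusted p = 0.0740). Of 9 receptor-like and lectin kinases 0 passed, with 5 reading higher and 4 lower. The coreceptor OsBAK1 differed by 0.80 ± 0.37 and OsLecRK4 by -0.99 ± 0.35.

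**Figure D4:**
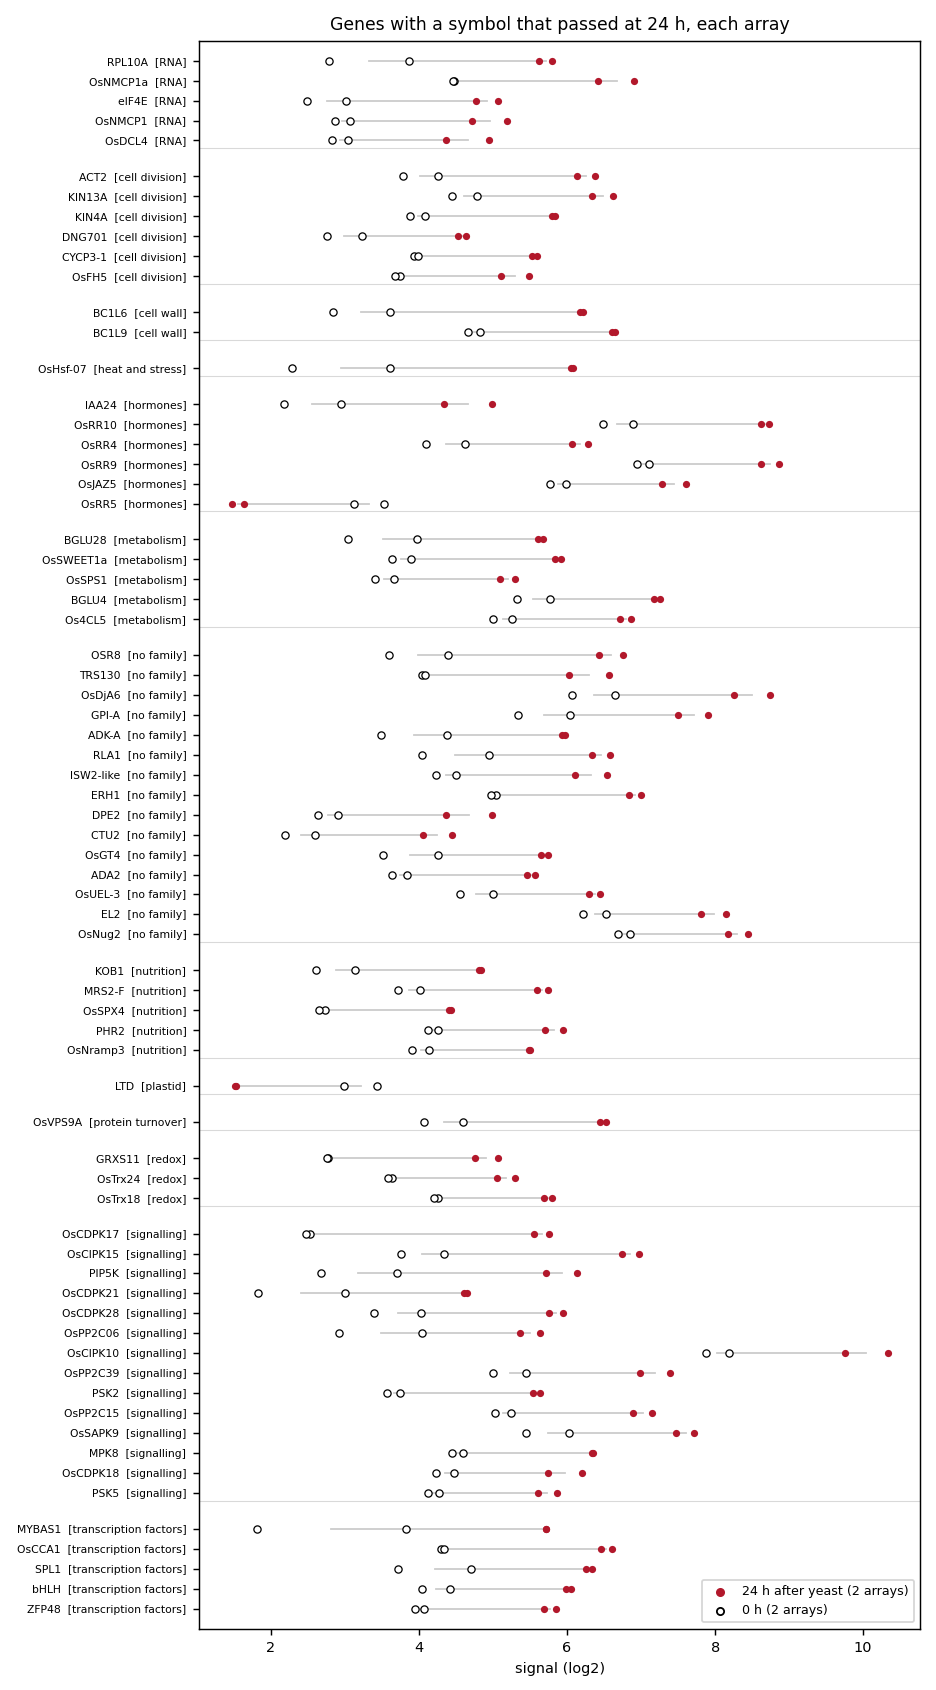
Log2 signal of 69 of the 70 genes with a symbol that passed, on each 24 h array (filled red) and each 0 h array (open), grouped by role. In all 69 the red and open points do not overlap, and OsRR5 and LTD are the 2 with the red points on the left.

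Hormone genes had 5 rises (3.18%, beside 2.97% of all genes) and 1 fall (beside 0.109% of all genes) among 157. The cytokinin response regulators are phosphorelay receivers, and those of type A are induced by cytokinin and dampen its signalling. Of 14 response regulators 3 rose and 1 fell. OsRR10 read 8.73 and 8.62 at 24 h, against 6.89 and 6.48 at 0 h (1.99 ± 0.33), OsRR9 8.86 and 8.62 at 24 h, against 6.94 and 7.11 at 0 h (1.72 ± 0.31), and OsRR4 6.28 and 6.07 at 24 h, against 4.62 and 4.09 at 0 h (1.81 ± 0.36). By contrast OsRR5 read 1.63 and 1.47 at 24 h, against 3.52 and 3.12 at 0 h, and fell by 1.77 on the log2 scale (SE 0.33, adjusted p = 0.0424), at the dim end of the arrays. The other 10 did not pass. Of 16 other cytokinin genes 0 passed, and OsCKX9, a cytokinin oxidase that breaks the hormone down, was also dim, with 1.53 and 1.62 at 24 h, against 2.60 and 3.55 at 0 h (-1.50 ± 0.37, adjusted p = 0.0797).

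Of the auxin genes, 1 of 24 Aux/IAA repressors rose, IAA24, which read 4.98 and 4.34 at 24 h, against 2.18 and 2.94 at 0 h (2.1 ± 0.42). Of 10 auxin response factors and 14 carriers, synthesis enzymes and receptors 0 passed, with the auxin carrier OsPIN5 at 1.35 ± 0.31 (adjusted p = 0.0655). Of 25 jasmonate genes 1 rose, OsJAZ5, one of the JAZ repressors of jasmonate signalling, with 7.28 and 7.60 at 24 h, against 5.99 and 5.77 at 0 h (1.56 ± 0.30). The jasmonate median of 0.58 lay above that of all genes in each scaling, and 22 of 25 read higher, beside 64.3% of all genes. The excess of this median was 0.32 as deposited, 0.14 after quantile normalization and 0.12 after cyclic loess. For 13 brassinosteroid, 21 gibberellin and diterpenoid and 7 ethylene genes 0 passed, and the medians were -0.09, -0.05 and 0.15, below that of all genes in each scaling. The brassinosteroid kinase OsGSK2 differed by 0.89 ± 0.42, KOCIII of the gibberellin and diterpenoid group by 1.24 ± 0.32 and the ethylene receptor OsERS1 by 0.88 ± 0.30.

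Among 191 transcription factors 5 rose (2.62%, beside 2.97% of all genes). MYBAS1, of the MYB family, read 5.71 and 5.71 at 24 h, against 3.82 and 1.81 at 0 h (2.90 ± 0.58, adjusted p = 0.0484), with 0 h arrays that lay 2.01 apart. Without the first or the second of them the difference was 3.90 and 1.89, and its second probe set differed by 2.34 ± 0.60 and did not pass (adjusted p = 0.0871). OsCCA1, the morning-phase factor of the circadian clock, read 6.46 and 6.60 at 24 h, against 4.30 and 4.34 at 0 h, a tight pair of values at each time (2.21 ± 0.28, adjusted p = 0.0195). SPL1, of the squamosa promoter-binding-like factors, read 6.33 and 6.26 at 24 h, against 4.70 and 3.71 at 0 h (2.09 ± 0.40).

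A gene listed under the symbol bHLH read 5.99 and 6.05 at 24 h, against 4.42 and 4.04 at 0 h (1.79 ± 0.31). It was the 1 riser in a family of 12 whose median, -0.26, lay below that of all genes in each scaling. ZFP48, a zinc-finger protein also named OsSAP7, was counted here by its symbol with the GRAS, YABBY, Dof and TCP factors. It is thus 1 of the 5 transcription factors that rose and is not among the SAP zinc fingers of the 55 heat and stress genes. ZFP48 read 5.69 and 5.85 at 24 h, against 4.06 and 3.95 at 0 h (1.76 ± 0.29). Its second probe set differed by 1.41 ± 0.29 (adjusted p = 0.0523). Among 45 homeobox, 24 MADS-box, 16 bZIP, 12 AP2/ERF and DREB, 10 NAC, 8 NF-Y and 6 WRKY factors 0 passed. OsMADS26 came nearest, reading 5.22 and 5.52 at 24 h, against 4.05 and 3.67 at 0 h (1.52 ± 0.31, adjusted p = 0.0513), and OsbZIP63 differed by 1.49 ± 0.34. The homeobox gene OsHox28 differed by -1.28 ± 0.32 (adjusted p = 0.0817), in a family with 27 genes reading higher and 18 lower. OsWRKY24 read 5.96 and 5.97 at 24 h, against 4.08 and 5.01 at 0 h (1.42 ± 0.43, adjusted p = 0.120). RLA1, an AP2-type factor given below, rose. By its symbol it belonged to no family, so it is not among the AP2/ERF and DREB factors or the 191 transcription factors.

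Heat and stress genes had 1 rise among 55 (1.82%, beside 2.97% of all genes). OsHsf-07, a heat stress transcription factor of class A, read 6.05 and 6.08 at 24 h, against 2.28 and 3.61 at 0 h. It was 8.69-fold higher (3.12 ± 0.47, adjusted p = 0.0299), while the median of the 19 genes of its family was 0.28. Its 0 h arrays lay far apart, and without the first or the second of them the difference was 2.46 and 3.78. Of 25 heat shock proteins and chaperones 0 passed, and the median of -0.11 lay below that of all genes in each scaling. CLPB2 had the largest difference of these 25, at 1.50 ± 0.35 (adjusted p = 0.0696). OsDjA6, a DnaJ-type cochaperone given below, rose by 2.14 ± 0.36. By its symbol it belonged to no family, so it is not among the 25 or the 55. OsDi19-5 and OsSAP15, of the stress zinc fingers, differed by 1.33 ± 0.31 and 1.26 ± 0.33.

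Of 34 defence genes 0 rose, beside 2.97% of all genes, and 0 fell, beside 0.109% of all genes. At those shares a set of this size would hold few or none. Of 13 chitinases and pathogenesis-related proteins, which attack or respond to fungi, OsChia2a read 5.62 and 5.75 at 24 h, against 2.88 and 4.68 at 0 h (1.91 ± 0.57, adjusted p = 0.117), and Cht9 read 5.09 and 5.12 at 24 h, against 4.14 and 3.93 at 0 h (1.07 ± 0.30). Their median of 0.13 lay below that of all genes in each scaling, and PBZ1 was the lowest member at -1.20. Of 15 disease resistance and cell death genes 12 read higher, with OsLOL2 at 1.38 ± 0.37. Of 8 strigolactone and symbiosis genes 0 passed. SMAX1L, a repressor in strigolactone and karrikin signalling, read 4.33 and 4.69 at 24 h, against 3.25 and 3.17 at 0 h (1.30 ± 0.32, adjusted p = 0.0797), and the nuclear ion channel gene OsPOLLUX differed by 0.96 ± 0.58.

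Nutrition genes rose in 5 of 138 cases (3.62%, beside 2.97% of all genes). Phosphate sensing pairs the transcription factor PHR2 with SPX proteins that hold it back when phosphate is plentiful. PHR2 read 5.94 and 5.70 at 24 h, against 4.26 and 4.12 at 0 h (1.63 ± 0.30), and OsSPX4 read 4.43 and 4.40 at 24 h, against 2.73 and 2.65 at 0 h (1.73 ± 0.30). Of the 11 phosphate regulators the other 9 did not pass, and of 10 phosphate transporters 0 passed, with a median of -0.19. MRS2-F, a magnesium transporter, read 5.74 and 5.59 at 24 h, against 3.71 and 4.01 at 0 h (1.81 ± 0.31). OsNramp3, a manganese transporter, read 5.49 and 5.50 at 24 h, against 3.91 and 4.13 at 0 h (1.47 ± 0.29, adjusted p = 0.0479), the smallest of the 68 rises.

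KOB1, a potassium channel beta subunit, read 4.83 and 4.81 at 24 h, against 3.14 and 2.61 at 0 h (1.95 ± 0.37), and was the 1 riser among 25 potassium and sodium transport genes. Nitrogen uptake and assimilation held no gene past the threshold, with 0 of 11 transporters and 0 of 7 assimilation genes. The ammonium transporter OsAMT3;2 read 4.26 and 4.73 at 24 h, against 3.25 and 3.05 at 0 h (1.35 ± 0.36, adjusted p = 0.0937), and plastid glutamine synthetase OsGLN2 5.50 and 4.85 at 24 h, against 3.98 and 3.98 at 0 h (1.19 ± 0.36). For either gene both 24 h arrays lay above both 0 h arrays, as they did for 42.6% of all genes. Of 17 aquaporins 0 passed, and the median of 0.09 lay below that of all genes in each scaling.

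Metabolic genes rose in 5 of 142 cases (3.52%, beside 2.97% of all genes). OsSWEET1a, a sugar carrier, read 5.84 and 5.92 at 24 h, against 3.89 and 3.63 at 0 h (2.12 ± 0.39), and OsSPS1, a sucrose phosphate synthase, 5.09 and 5.30 at 24 h, against 3.40 and 3.66 at 0 h (1.67 ± 0.31). The 61 sugar genes spread widely around a median of 0.10, and the amylase AMY3D was the lowest at -2.02 without passing. The beta-glucosidases BGLU28 and BGLU4, which release sugars from glucosides, read 5.61 and 5.68 and 7.25 and 7.18 at 24 h, against 3.97 and 3.04 and 5.77 and 5.32 at 0 h (2.13 ± 0.39 and 1.67 ± 0.32). Os4CL5, a 4-coumarate ligase at the entry to lignin, rose with 6.86 and 6.72 at 24 h, against 5.26 and 5.0 at 0 h (1.66 ± 0.29), whereas the 31 phenylpropanoid genes had a median of -0.06, below that of all genes in each scaling. The 9 fermentation and hemoglobin genes had a median of -0.26 with 0 past the threshold.

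In the cell wall, 2 of 116 genes rose (1.72%, beside 2.97% of all genes). Both encode COBRA-like proteins, which are anchored at the cell surface and known for cellulose assembly. BC1L6 read 6.21 and 6.18 at 24 h, against 2.84 and 3.61 at 0 h, a 7.85-fold difference (2.97 ± 0.35, adjusted p = 0.0156), and BC1L9 read 6.65 and 6.61 at 24 h, against 4.66 and 4.82 at 0 h (1.89 ± 0.29). The other 4 COBRA-like genes did not pass, and BC1L2 was at -0.53. Of 20 cellulose synthases and relatives 0 passed and 16 read higher, with the secondary-wall subunit OsCesA4 at 1.16 ± 0.39. Of 38 expansins, which loosen walls, 0 passed. OsEXP10 came near, reading 4.74 and 4.97 at 24 h, against 2.56 and 3.33 at 0 h (1.91 ± 0.40, adjusted p = 0.0540). OsEXLB1 differed by -1.18 ± 0.34 (adjusted p = 0.108), and 20 expansins read higher and 18 lower. The expansin median of 0.09 lay below that of all genes in each scaling.

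Redox genes rose in 3 of 70 cases (4.29%, beside 2.97% of all genes). Each was among the 43 glutaredoxins and thioredoxins, small proteins that reduce disulfides. GRXS11 read 4.75 and 5.06 at 24 h, against 2.77 and 2.76 at 0 h (2.13 ± 0.29, adjusted p = 0.0238). OsTrx24 read 5.05 and 5.30 at 24 h, against 3.64 and 3.58 at 0 h (1.56 ± 0.29), and OsTrx18 read 5.79 and 5.69 at 24 h, against 4.26 and 4.20 at 0 h (1.51 ± 0.29). In these genes the 0 h arrays nearly coincided. Of 27 antioxidant enzymes and oxidases 0 passed, with 21 reading higher and the methionine sulfoxide reductases OsMSRA5 and OsMSRA4 at 1.28 ± 0.28 (adjusted p = 0.0598) and 1.17 ± 0.29.

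Genes of cell division, chromatin and the cytoskeleton rose in 6 of 141 cases (4.26%, beside 2.97% of all genes). The kinesin motors KIN13A and KIN4A read 6.62 and 6.33 and 5.83 and 5.80 at 24 h, against 4.78 and 4.44 and 4.08 and 3.88 at 0 h (1.86 ± 0.30 and 1.83 ± 0.30). The 19 kinesins had a median of 0.44, above that of all genes in each scaling. The actin ACT2 read 6.37 and 6.14 at 24 h, against 4.25 and 3.78 at 0 h (2.24 ± 0.34), and the formin OsFH5, which nucleates actin filaments, 5.48 and 5.11 at 24 h, against 3.74 and 3.68 at 0 h (1.58 ± 0.32). ACT2 shares sequence with other actins, so its probe set may not measure it alone. CYCP3-1, a P-type cyclin, read 5.52 and 5.59 at 24 h, against 3.93 and 3.99 at 0 h (1.59 ± 0.28), the 1 riser among 36 cyclins and their kinases. DNG701, a DNA glycosylase that removes methylated cytosine, read 4.53 and 4.64 at 24 h, against 3.23 and 2.75 at 0 h (1.60 ± 0.31), the 1 riser among 48 histone, replication and chromatin genes.

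Genes of RNA, translation and the nuclear matrix, counted together, rose in 5 of 73 cases (6.85%, beside 2.97% of all genes). Of the 5, 2 are the nuclear matrix genes given below, so this share does not describe RNA and translation genes alone. The ribosomal protein gene RPL10A read 5.62 and 5.80 at 24 h, against 2.78 and 3.87 at 0 h (2.39 ± 0.40, adjusted p = 0.0357), with the 0 h arrays far apart, and the cap-binding factor eIF4E 5.06 and 4.77 at 24 h, against 3.01 and 2.49 at 0 h (2.17 ± 0.34). The 19 ribosomal and translation genes had a median of 0.63, with 17 reading higher. Both genes of the nuclear matrix constituent proteins, coiled-coil proteins of the nuclear edge, rose. OsNMCP1a read 6.91 and 6.42 at 24 h, against 4.47 and 4.46 at 0 h (2.20 ± 0.31), and OsNMCP1 read 5.19 and 4.72 at 24 h, against 3.06 and 2.86 at 0 h (2.00 ± 0.31). OsDCL4, the Dicer-like enzyme that cuts double-stranded RNA into small RNAs, read 4.37 and 4.95 at 24 h, against 3.04 and 2.82 at 0 h (1.73 ± 0.35, adjusted p = 0.0490).

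For protein turnover and membrane traffic 1 of 45 genes rose (2.22%, beside 2.97% of all genes). It was OsVPS9A, an exchange factor for Rab5 GTPases of endosomes, with 6.53 and 6.44 at 24 h, against 4.07 and 4.59 at 0 h (2.16 ± 0.36). The 30 proteasome and ubiquitin genes and the 15 autophagy and vesicle genes had medians of 0.60 and 0.81, above that of all genes in each scaling. The proteasome excess was 0.34 as deposited, but 0.03 after quantile normalization and 0.04 after cyclic loess. For autophagy and vesicle genes it was 0.54 as deposited, 0.14 after quantile normalization and 0.10 after cyclic loess. Among 33 plastid and photoreceptor genes 1 fell (beside 0.109% of all genes) and 0 rose (beside 2.97% of all genes). LTD, named for a protein that escorts light-harvesting proteins into chloroplasts, read 1.52 and 1.51 at 24 h, against 2.99 and 3.43 at 0 h, and fell by 1.70 on the log2 scale (SE 0.30, adjusted p = 0.0394). Its signals at 24 h were at the dim end of the arrays. The 15 ABC and anion channel genes and the 11 seed protein genes held 0 that passed, beside 3.08% of all genes.

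A few further families held no gene past the threshold. Of 31 CCCH zinc-finger proteins, many of which bind RNA, 23 read higher, and OsC3H12 read 5.10 and 5.31 at 24 h, against 3.62 and 3.96 at 0 h (1.42 ± 0.30, adjusted p = 0.0545). Of 20 Casparian strip proteins, the relatives of membrane scaffolds that seal the endodermis, 17 read higher, with a median of 0.55 that lay above that of all genes in each scaling and OsCASPL1B1 at 1.41 ± 0.41 (adjusted p = 0.109). The excess of this median was 0.29 as deposited and 0.13 after quantile normalization or cyclic loess. Of 11 tubby-like proteins 10 read higher, with a median of 0.38. The 32 glucanases and wall glycosyltransferases had a median of 0.40 and IRX9L, named for a xylan synthesis gene, at 1.41 ± 0.43 (adjusted p = 0.125).

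A further 15 genes with a symbol belonged to no family, and each rose. EL2, named in rice as an elicitor-responsive inhibitor of the cell cycle, read 8.14 and 7.81 at 24 h, against 6.53 and 6.22 at 0 h (1.60 ± 0.31), and its second probe set has identical values and is not a further measurement. OSR8 had the largest difference of the 15, with 6.43 and 6.75 at 24 h, against 3.59 and 4.39 at 0 h (2.60 ± 0.38, adjusted p = 0.0270). TRS130, a subunit of the vesicle-tethering TRAPP complex, differed by 2.23 ± 0.31 and OsDjA6, a DnaJ-type cochaperone, by 2.14 ± 0.36. GPI-A, a phosphoglucose isomerase, differed by 2.02 ± 0.35, the adenylate kinase ADK-A by 2.01 ± 0.36 and DPE2, a glucanotransferase of starch breakdown, by 1.91 ± 0.33. RLA1, an AP2-type factor also named SMOS1, differed by 1.97 ± 0.38, ISW2-like, named for a chromatin remodeller, by 1.95 ± 0.31 and ADA2, a transcription adaptor, by 1.78 ± 0.30. CTU2, which thiolates tRNA, differed by 1.84 ± 0.32, and OsNug2, a nucleolar GTPase, by 1.53 ± 0.30. The remaining ones, ERH1, OsGT4 and OsUEL-3, differed by 1.92 ± 0.38, 1.81 ± 0.36 and 1.60 ± 0.31.

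Most genes that passed are known only by number, 368 of the 436 that rose and 14 of the 16 that fell. The largest rises were those of LOC4324184, with 6.83 and 6.19 at 24 h, against 2.60 and 1.85 at 0 h (4.28 ± 0.39, adjusted p = 0.00871), LOC9266183, with 7.17 and 6.69 at 24 h, against 2.62 and 2.73 at 0 h (4.25 ± 0.31, adjusted p = 0.00871), and LOC4324136, with 6.82 and 6.42 at 24 h, against 3.76 and 2.07 at 0 h (3.70 ± 0.54). The last had 0 h arrays far apart, and its difference was 4.54 without the first of them and 2.86 without the second. The largest falls were dimmer. LOC4328351 read 2.14 and 2.60 at 24 h, against 4.28 and 4.46 at 0 h (-2.00 ± 0.31), LOC4341380 1.30 and 1.70 at 24 h, against 3.50 and 3.16 at 0 h (-1.83 ± 0.32), and LOC9267809 1.36 and 1.26 at 24 h, against 3.13 and 3.09 at 0 h (-1.80 ± 0.29).

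The 24 h and the 6 h roots were set against the same 0 h arrays, so their differences from 0 h are not independent and are given side by side. Of the 436 genes that rose at 24 h, 229 also passed at 6 h, and of the 16 that fell 6 did. Among the 70 with a symbol, 38 passed at both times and 32 only in the 24 h comparison. Of those that rose, 38 read higher at 24 h than at 6 h and 29 lower. OsHsf-07 differed from 0 h by 3.12 at 24 h and by 1.44 ± 0.47 at 6 h, OsCCA1 by 2.21 at 24 h and by 1.30 ± 0.28 at 6 h, and OsTrx24 by 1.56 at 24 h and by 0.61 ± 0.29 at 6 h. In the direct test of 24 h minus 6 h 0 of the 41770 probe sets passed in limma (1097 had an unadjusted p under 0.05), and the smallest adjusted p among the 70 was 1.00, so no gene is shown to differ between these times.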

How the data were processed

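Total RNA of roots was hybridised to Affymetrix arrays after labelling with the GeneChip WT Terminal Labeling kit, per the labels' protocols. The authors deposited 1 table of summarised log signals per probe set, read here as log2 because the values run from 0.65 to 13.36. Affymetrix Expression Console was used, per the submitters' processing notes. The sources used here give no version, background correction or normalization between arrays, and no detection call was used. Every fold rests on the reading as log2.

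The deposited log2 values were not transformed. With limma 3.58.1 in R 4.3.3, 1 mean per time was fitted over all 6 arrays, followed by eBayes. The contrast was 24 h minus 0 h, with Benjamini-Hochberg adjustment over 41770 probe sets and a threshold of 0.05. The 6 h arrays serve to estimate the spread. Errors are standard errors from limma. Adjusted p-values in the text are limma's. The fit was also run on simulated data (41770 probe sets), drawn as independent normal values. Each probe set had limma's spread for it, the same on all 6 arrays. There 39 of 50 changes of 2 log2 units, 49 of 50 of 3 and 17 of 41570 unchanged probe sets were called. On the real arrays the median SD over genes was 0.17 at 24 h and 0.32 at 0 h, so these rates may not carry over.

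The platform annotation gave 15299 probe sets 1 gene, 436 several and 26035 none. Of 14662 genes, 14661 were found in a RefSeq table (assembly ASM3414082v1), whose symbols and synonyms were used. For 607 genes with several probe sets, the one with the highest mean over the 6 arrays was taken. Of all probe sets, 250 repeat the 6 values of another, 23 of them among the 925 that passed. Families were formed from symbol patterns, adjusted once the gene names had been seen. The members, lists and tests were chosen with earlier results of these data known. The text names each gene with a symbol that passed with both 24 h arrays on one side of both 0 h arrays, up to 2 members of smallest unadjusted p from families of 3 or more genes without one, and 3 numbered genes per direction; 1 gene that passed is not reported here by name. Lowest family members, OsAMT1;3, OsHKT1;5 and LOC4339095 were added after their values were seen. Alternatives were 3 other scalings, other limma settings, filters, a replicate block and leaving out each array. Python 3.11.15 and matplotlib 3.10.9 were used for annotation and plots.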

Additional observations from a re-analysis of the deposited data

How the results depend on the processing

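As deposited, 925 probe sets passed. With other scalings the count was 24 after quantile normalization and 52 after cyclic loess, where the fit was the same and the arrays were given like distributions; with array weights it was 1502. With only the 4 arrays of the 2 times 0 passed (9271 at an unadjusted p under 0.05, smallest adjusted p 0.0523), and this fit has fewer residual degrees of freedom. Leaving out 1 array in turn gave 0 to 2793. Without a 6 h array the lone array left adds no residual degree of freedom, so the result equals that of the 4 arrays, and otherwise a lone array was taken to vary as the arrays of other times do. The cause of the other changes was not tested. Between 743 and 1302 passed with 1 probe set per gene, an intensity trend with robust estimation, the lowest 33.3% left out or median centring, and 925 with a fold of at least 2. With the replicate number as a block 570 passed, 37 of the 70 genes with a symbol among them; same-numbered deviations correlated at 0.033 between 24 h and 0 h, 0.047 between 6 h and 0 h and 0.155 between 24 h and 6 h, not every one over 0.1, so the numbers were not taken to pair the arrays. After quantile normalization and cyclic loess 2 genes that had not passed changed sign, OsNCED3 (-0.03 and -0.07, against 0.64 as deposited) and ACS1 (-0.05 and -0.06, against 0.59). The other genes picked by the naming rule given above kept their sign under the alternatives run. Genes added after their values were seen are not covered by this statement. For the 70 genes with a symbol that passed, 493 of 1048 values kept their call and 555 lost it. For the other genes picked by that rule, 48 of 1490 values came to pass and 39 lost a call. Of 560 family medians under alternatives, 131 moved by more than the spread between arrays. How far dim signals lie above background is unknown.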
